A study of Mus musculus with 6 samples.

Results

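The lamin genes and 3 families of chromatin protein genes were examined in mouse HT22 cells with and without aluminum (Al). The set held 10 genes, chosen by symbol, of the 21878 gene rows in the expression table. They were the lamin genes Lmna, Lmnb1 and Lmnb2, the HMGB genes Hmgb1 and Hmgb2, the HMGA genes Hmga1 and Hmga2, and the HP1 genes Cbx1, Cbx3 and Cbx5. All 10 were in the table and all 10 passed the filter on low values.

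Lamins are intermediate filament proteins that form a meshwork under the inner nuclear membrane, to which heterochromatin is tethered. HMGB and HMGA proteins bend or bind DNA without reading a long sequence, and HP1 proteins bind a methylated lysine of histone H3 and compact heterochromatin. In senescent cells of many kinds, lamin B1 and HMGB2 are lost, HMGB1 leaves the nucleus, and HMGA and HP1 proteins gather in dense heterochromatin foci, so these genes are often read as senescence markers.

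HT22 is an immortalized mouse line described as hippocampal neuronal. The control group (n = 3 libraries) received no Al, and the Al group (n = 3) received 120 µM aluminum maltolate, a soluble complex of Al with maltol, for 24 h in the study's methods. Both groups were the same line, and no FTO overexpression or knockdown is described for them. The methods list a medium control and a maltol control without saying which was sequenced. The libraries were the input arm of an m6A immunoprecipitation experiment, so they hold fragmented RNA that had not been enriched for m6A, and the comparison asks how Al exposure changed transcript levels.

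The library totals recovered from the table were 38059492 to 44556768 reads in the control group and 21125631 to 26670978 in the Al group. Levels are given as FPKM, the fragments per kilobase of gene relative to the reads of the library, and as scaled FPKM, the FPKM divided by a size factor of the library (1.17 to 1.21 in control, 0.802 to 0.932 in Al). Al replicate 3 stood somewhat apart: its log2 values correlated with those of the other Al libraries at r = 0.975 and 0.977 across genes, against 0.983 between those 2 and 0.990 to 0.992 among the control libraries. Most defining neuronal markers were absent or nearly so. Of 8 neuronal genes, Nefm and Snap25 were at 0 in all 6 libraries, and only Tubb3 and Eno2 exceeded 1 FPKM in any library. Tubb3 was at 5.11 to 5.54 FPKM in control and 2.44 to 3.96 FPKM in Al. Eno2 was at 2.26 to 3.69 FPKM in control and 0.868 to 3.33 FPKM in Al. The summed neuronal level was 7.66 to 9.47 FPKM in control and 3.89 to 7.50 FPKM in Al, and Neurod1 and Calb1, markers of hippocampal neurons, were at 0 throughout. Of 5 astrocyte markers, Slc1a3 alone exceeded 1 FPKM in any library, and the list summed to 14.0 to 23.3 FPKM in control and 1.56 to 2.70 FPKM in Al, with Aqp4 at 0. The 6 microglia markers summed to 39.4 to 49.0 FPKM in control and 22.2 to 72.7 FPKM in Al, and 1 of them exceeded 1 FPKM in any library. No oligodendrocyte or endothelial marker on the lists exceeded 1 FPKM in any library. The 5 fibroblast markers summed to 2030 to 3239 FPKM in control and 2480 to 3465 FPKM in Al, nearly all of it Col1a1 and Col1a2. Col1a1 rose by 0.92 on the log2 scale (limma adjusted P = 0.0219), and Col1a2 at 0.47 was not called, but none of the 5 was called higher on the FPKM as deposited, on TPM or after quantile normalization. Of the others, Dcn fell by 1.64 and Pdgfra by 1.22 on the log2 scale, and Pdgfrb at -0.66 was not called. The part of these markers in the results was not tested. In a bulk sample, a change in RNA per cell cannot be told apart from a change in the make-up of the culture.

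Among the 10 genes, 5 rose in the Al group, none fell and 5 were not called. Hmgb1, Hmgb2, Lmnb1, Hmga1 and Cbx3 rose, with log2 fold changes of 0.89 to 1.59. Lmna, Lmnb2, Hmga2, Cbx1 and Cbx5 were not called. A gene was called in the limma fit where the P before adjustment was under 0.05 and the log2 fold change passed 0.58 in size, and by this rule 26.2% of the 12889 tested genes rose and 24.4% fell. The same 5 genes were called at an adjusted P under 0.05 with the same fold change, a rule that called 25.5% of all tested genes higher. The median log2 fold change of the 10 genes was 0.71, against 0.03 over all tested genes. An adjusted P under 0.05 at any size of change was reached by 7 of the 10 genes and by 62.1% of all tested genes. For Lmna and Cbx5, among the 7, it was lost with the replicate number as a block (limma adjusted P = 0.0689 and 0.0735), and it ran from 0.000277 to 0.0955 for Lmna and from 0.0236 to 0.0907 for Cbx5 when 1 library was left out. The groups did not overlap for 7 of the 10 genes, where 68.1% of all tested genes had groups that did not overlap. The Al libraries were above control for 6 of these and below for 1, against 35.1% and 33.1% of all tested genes.

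**Figure D1:**
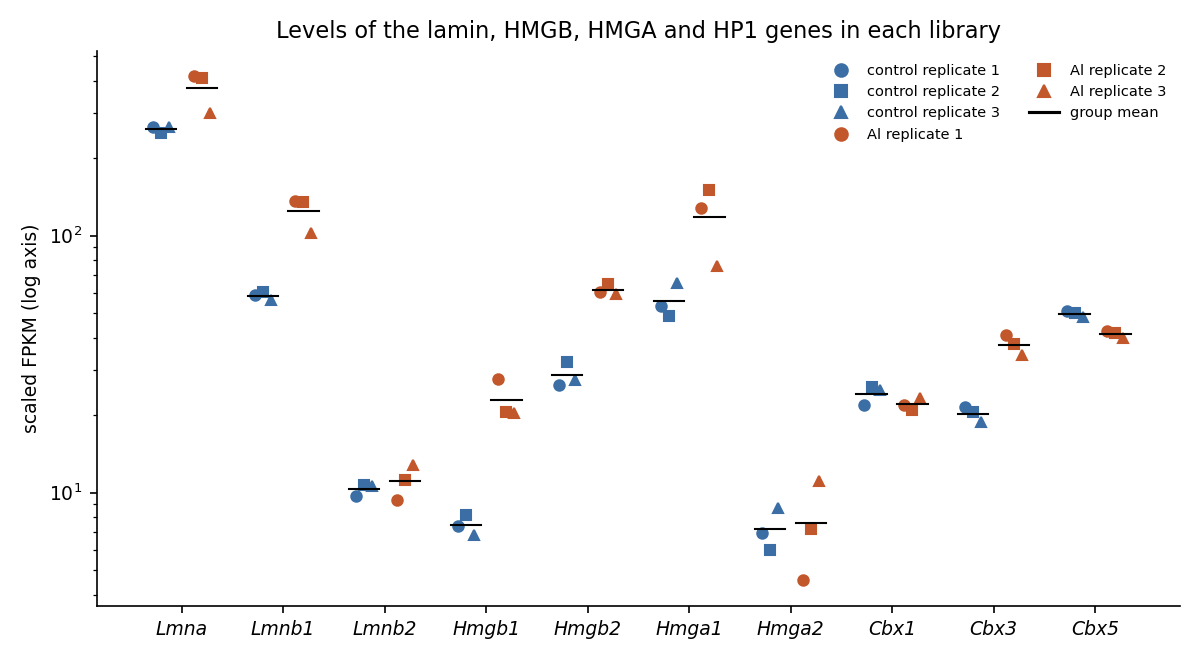
Scaled FPKM (log axis) of the 10 genes in each of the 6 libraries, with symbols for replicates, colours for groups and bars for group means. All 3 Al libraries lie above all 3 control libraries for Lmna, Lmnb1, Hmgb1, Hmgb2, Hmga1 and Cbx3, and below them for Cbx5, while the groups overlap for Lmnb2, Hmga2 and Cbx1.

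These counts depend on how the libraries are put on one scale. The size factors placed the median of all genes at 0.03, whereas the FPKM as deposited placed it at -0.43, TPM at -0.72 and quantile normalization at -0.03. Over all genes, 3375 rose and 3143 fell on the scaled values, against 1805 (14.0%) and 5417 (42.0%) on the FPKM as deposited, 1200 (9.31%) and 6843 (53.1%) on TPM, and 2834 (22.0%) and 3104 (24.1%) after quantile normalization. Of the 10 genes, 3 rose and 2 fell on the FPKM as deposited, 1 rose and 4 fell on TPM, and 3 rose and 1 fell after quantile normalization. Hmgb1 was the only one of the 10 genes called higher under all 4 scalings. Set against the median of all genes, Lmnb1, Hmgb1, Hmgb2, Hmga1 and Cbx3 lay above it under each of the 4 scalings. Lmnb2 did so by only 0.03 to 0.17, and Cbx1 lay below it under each, at -0.17 to -0.27. Lmna lay above it except after quantile normalization (-0.19), and Hmga2 lay above it only then (0.22). For Lmnb1 the excess over that median was 1.05, 1.03 and 1.01 on the log2 scale with size factors, deposited FPKM and TPM, and 0.57 with quantile normalization. The first 3 of these each apply 1 factor per library, which moves a gene and the median nearly alike. Their likeness was therefore set in advance, and only quantile normalization is a separate check. For Cbx5 the difference from that median was negative under each scaling, from -0.29 to -0.60.

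**Figure D2:**
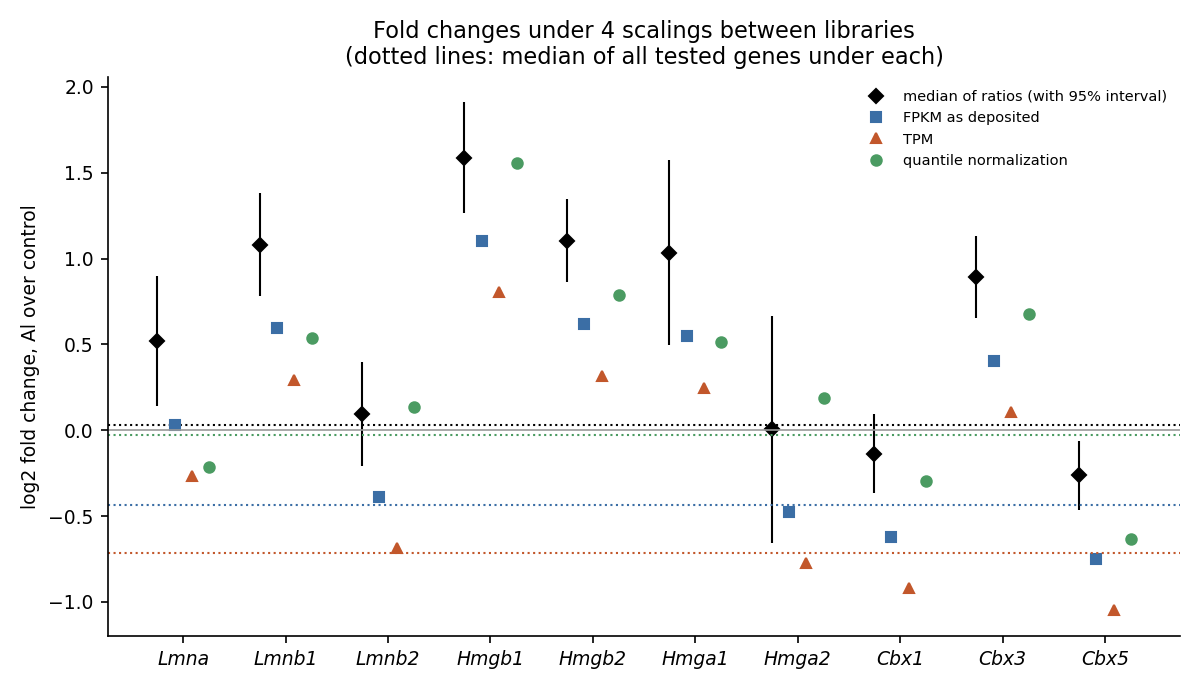
Log2 fold change (Al over control) of each gene under 4 scalings between libraries, with the 95% interval of the median-of-ratios fit as vertical lines and the median of all tested genes under each scaling as dotted lines. Hmgb1 lies highest of the 10 genes under every scaling, Lmna changes sign, and Cbx5 lies below the dotted line of each scaling.

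Lmna encodes lamins A and C, the A-type lamins, and lies on chromosome 3 from 88481148 to 88509932 (RefSeq positions here and below are on GRCm38.p6). It had the highest level of the 10 genes in both groups. Its scaled FPKM was 264, 250 and 265 in control replicates 1 to 3 and 418, 411 and 301 in Al replicates 1 to 3. The groups did not overlap, and Al replicate 3 lay nearest to the control libraries. The log2 fold change was 0.52 (SE 0.166, 95% interval 0.14 to 0.90, limma adjusted P = 0.0228), which is under the fold threshold, and it was -0.27 on TPM and -0.22 after quantile normalization. Without Al replicate 3 it was 0.68 and Lmna was called. On the FPKM as deposited, the levels of 313, 302 and 311 in control and 335, 335 and 281 in Al overlapped.

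Lmnb1 encodes lamin B1, a farnesylated lamin that stays attached to the nuclear membrane, and lies on chromosome 18 from 56707813 to 56753424. Its scaled FPKM was 58.8, 60.4 and 56.0 in the control libraries. In the Al libraries it was 137, 135 and 103, so that every Al library lay well above the control range. Lmnb1 rose by a log2 fold change of 1.08 (SE 0.131, 95% interval 0.78 to 1.38, limma adjusted P = 0.00016), a fold of 2.12. The log2 fold change stayed positive on the FPKM as deposited (0.59), on TPM (0.29) and after quantile normalization (0.54), and the call was lost under the last 2. Between 5746 and 9007 reads lay behind each of these values, and no stretch of 50 bases of its longest coding transcript occurs in a transcript of another gene.

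Lmnb2 encodes lamin B2 and lies on chromosome 10 from 80901363 to 80918245. It was the lowest of the lamin genes, with a scaled FPKM of 9.67, 10.7 and 10.6 in control and 9.34, 11.2 and 12.8 in Al. The Al libraries enclosed the control range. The log2 fold change was 0.09 (95% interval -0.21 to 0.39, limma adjusted P = 0.55) with size factors, -0.39 and not called on the FPKM as deposited, and -0.69 and called lower on TPM.

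Ratios of FPKM within a library are the same under size factors, deposited FPKM and TPM, which each apply 1 factor per library, but not under quantile normalization. With 3 libraries against 3, the exact two-sided permutation test cannot give a P below 0.1, so no ratio can pass 0.05, and groups that do not overlap give that smallest P. The Lmnb1 to Lmna ratio was 0.223, 0.241 and 0.211 in control and 0.328, 0.328 and 0.341 in Al. It was higher in all 3 Al libraries, by 0.56 on the log2 scale (exact permutation P = 0.1, 0.16 after Benjamini-Hochberg adjustment over 8 ratios). The Lmnb1 to Lmnb2 ratio was 6.08, 5.66 and 5.28 in control and 14.7, 12.04 and 8.03 in Al. It too was higher in all 3 Al libraries, by 0.99 on the log2 scale, and Al replicate 3 lay nearest to control. Lamin B1 transcripts made up 17.8% ± 0.95 of the summed lamin FPKM in control and 24.4% ± 0.242 in Al (SD, n = 3 each), and Lmna made up 79.1% ± 1.05 and 73.4% ± 0.963. The Lmnb2 to Lmna ratio differed by -0.43 on the log2 scale with groups that overlapped (exact permutation P = 0.3), and by -0.22 without Al replicate 1 and -0.69 without Al replicate 3. After quantile normalization the log2 differences were 0.76 for Lmnb1 to Lmna, 0.40 for Lmnb1 to Lmnb2 and 0.35 for Lmnb2 to Lmna, the last of which turned in direction.

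Hmgb1 encodes a DNA-bending protein with paired HMG boxes that also acts as an alarm signal once it leaves the cell, and lies on chromosome 5 from 149046702 to 149053057. Hmgb2 encodes its close relative, which is abundant in dividing cells, and lies on chromosome 8 from 57511843 to 57515999. The bases just before the first RefSeq start site of each are shown because both genes rose and both stretches hold several copies of CCAAT, the letters bound by the factor NF-Y. Hmgb1 has another listed start site, whose window of 250 bases holds 0 copies and is not shown. Capitals mark CCAAT on the printed strand, which is the strand of the gene.
Hmgb1, chr5:149053058-149053257, minus strand of GRCm38.p6: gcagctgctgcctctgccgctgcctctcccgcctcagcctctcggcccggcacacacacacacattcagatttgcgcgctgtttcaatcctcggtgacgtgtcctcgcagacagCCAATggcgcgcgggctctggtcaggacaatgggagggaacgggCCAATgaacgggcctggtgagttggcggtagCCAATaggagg
Hmgb2, chr8:57511593-57511842, plus strand of GRCm38.p6: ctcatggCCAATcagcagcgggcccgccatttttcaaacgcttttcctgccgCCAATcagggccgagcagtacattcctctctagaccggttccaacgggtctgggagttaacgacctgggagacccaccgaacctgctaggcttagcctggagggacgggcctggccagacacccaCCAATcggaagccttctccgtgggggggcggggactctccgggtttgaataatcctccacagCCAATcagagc
The Hmgb1 stretch of 200 bases holds 3 copies and the Hmgb2 stretch of 250 bases holds 4. CCAAT on either strand occurs at least once in 33.8% of the 32851 RefSeq windows of 250 bases before a start site, and 3 or more times in 2.79%. Of the other members with a window, none has more than 1 copy before any listed start site. Among the other genes that rose, Hmga1 and Cbx3 have 0 copies before each listed start site, and Lmnb1 has no window. Other short motifs were counted in the same windows and are not shown. A match of letters is a description and no site of binding was measured.

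The scaled FPKM of Hmgb1 was 7.39, 8.21 and 6.83 in control and 27.6, 20.6 and 20.4 in Al. The lowest Al library was above the highest control library by a wide margin, and Al replicate 1 was the highest. Hmgb1 rose by a log2 fold change of 1.59 (SE 0.141, 95% interval 1.27 to 1.91, limma adjusted P = 3.57e-05), a fold of 3.01. It was called higher under every setting tried, with 1.10 on the FPKM as deposited, 0.81 on TPM and 1.56 after quantile normalization. The depth was 1064 to 1375 reads per control library and 1171 to 1884 per Al library, so the reads themselves were about as many in the shallower Al libraries.

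The scaled FPKM of Hmgb2 was 26.3, 32.1 and 27.5 in control and 60.3, 64.7 and 59.2 in Al. The Al libraries lay close together and all above control. Hmgb2 rose by a log2 fold change of 1.10 (SE 0.106, 95% interval 0.86 to 1.34, limma adjusted P = 5.02e-05), a fold of 2.15, and the value on TPM was 0.32 and not called. Hmgb2 remained the more abundant of the pair per length in every library, and the Hmgb2 to Hmgb1 ratio was 3.56, 3.91 and 4.02 in control and 2.19, 3.14 and 2.91 in Al. The ratio was lower in all 3 Al libraries, by -0.49 on the log2 scale (exact permutation P = 0.1, adjusted 0.16). After quantile normalization the log2 difference was -0.78.

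Both HMGB genes share sequence with other genes, so that reads can be split or lost in counting. Of the stretches of 50 bases in the longest coding transcript, 36.8% of those of Hmgb1 occur in transcripts of 130 other genes, 128 of them pseudogenes, and 21.9% of those of Hmgb2 occur in 9 others. Their values are uncertain to that extent. Cbx3 shared 24.6%, with 13 pseudogenes, and Hmga1 69.1%, while Lmna, Lmnb1 and Cbx1 shared none and Lmnb2, Hmga2 and Cbx5 shared under 1%. Thus 4 of the 5 genes that rose shared more than 20% with other genes, a limit set after the values were seen, and the 5 genes that were not called shared under 1%. Over all tested genes with a coding transcript in GENCODE, 35.2% of the 985 genes that shared at least 20% rose, against 24.3% of the 9481 that shared under 1%, with median log2 fold changes of 0.27 and -0.03. The part of shared sequence in these fold changes was not tested.

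HMGA1 and HMGA2 are small proteins whose AT hooks grip the minor groove of AT-rich DNA. Hmga1 lies on chromosome 17 from 27556574 to 27563672, and Hmga2 on chromosome 10 from 120361268 to 120476469.

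The scaled FPKM of Hmga1 was 53.2, 48.5 and 65.1 in control and 128, 150 and 75.9 in Al. Al replicate 3 lay just above the highest control library, and the other Al libraries lay far above it. Hmga1 rose by a log2 fold change of 1.03 (SE 0.237, 95% interval 0.50 to 1.57, limma adjusted P = 0.00484), a fold of 2.05, with the widest interval of the 5 genes that rose. On the FPKM as deposited the groups overlapped and the value of 0.55 was not called, as were 0.25 on TPM and 0.51 after quantile normalization. The values are uncertain because of the shared sequence.

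The scaled FPKM of Hmga2 was 6.97, 5.95 and 8.73 in control and 4.55, 7.24 and 11.1 in Al. The Al libraries spread over more than the whole control range, from the lowest to the highest of the 6 values. The log2 fold change was 0.00 (95% interval -0.66 to 0.66, limma adjusted P = 0.99), -0.48 and not called on the FPKM as deposited, -0.77 and called lower on TPM, and positive after quantile normalization (0.19). The interval allows a change by the size of the threshold in either direction. The Hmga2 to Hmga1 ratio was 0.131, 0.123 and 0.134 in control and 0.0357, 0.0483 and 0.146 in Al. Al replicates 1 and 2 lay below the control range and Al replicate 3 above it, so the difference of -1.03 on the log2 scale did not separate the groups (exact permutation P = 0.4), and it was -0.62 without Al replicate 1 and -1.64 without Al replicate 3. After quantile normalization it was -0.32, again with groups that overlapped.

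The HP1 proteins are HP1 beta, gamma and alpha, encoded by Cbx1, Cbx3 and Cbx5. HP1 alpha and beta sit mainly in heterochromatin, and HP1 gamma is also found along active genes. Cbx3, on chromosome 6 from 51470154 to 51483704, had a scaled FPKM of 21.4, 20.6 and 18.7 in control and 40.97, 37.8 and 34.2 in Al. Every Al library lay above every control library. Cbx3 rose by a log2 fold change of 0.89 (SE 0.105, 95% interval 0.65 to 1.13, limma adjusted P = 0.00014), a fold of 1.85. The value was 0.68 and called after quantile normalization, and 0.40 and 0.11 and not called on the FPKM as deposited and on TPM.

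Cbx5, on chromosome 15 from 103191546 to 103239904, had a scaled FPKM of 50.8, 49.97 and 48.1 in control and 42.4, 41.9 and 39.8 in Al. The groups were tight and did not overlap, with Al below control. The log2 fold change of -0.26 (SE 0.088, 95% interval -0.46 to -0.06, limma adjusted P = 0.0279) was smaller than the threshold. Cbx5 was called lower under the other 3 scalings, at -0.75 on the FPKM as deposited, -1.05 on TPM and -0.63 after quantile normalization.

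Cbx1, on chromosome 11 from 96788680 to 96808982, had a scaled FPKM of 22.0, 25.8 and 25.2 in control and 22.0, 20.9 and 23.3 in Al. The groups overlapped and the log2 fold change was -0.14 (95% interval -0.37 to 0.09, limma adjusted P = 0.267). It was called lower at -0.62 on the FPKM as deposited and -0.92 on TPM.

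The other HP1 genes were set against Cbx3 within each library. The Cbx5 to Cbx3 ratio was 2.37, 2.43 and 2.57 in control and 1.03, 1.11 and 1.16 in Al, and the Cbx1 to Cbx3 ratio was 1.02, 1.25 and 1.34 in control and 0.537, 0.552 and 0.681 in Al. Both were lower in all 3 Al libraries, by -1.16 and -1.03 on the log2 scale (exact permutation P = 0.1 each, adjusted 0.16). After quantile normalization the log2 differences were -1.31 and -0.98. The Cbx1 to Cbx5 ratio overlapped between the groups, with a difference of 0.13 (exact permutation P = 0.5), and did not overlap after quantile normalization, with a difference of 0.34. Cbx3 made up 21.5% ± 1.20 of the summed HP1 FPKM in control and 37.2% ± 1.88 in Al, and Cbx5 made up 52.7% ± 1.09 and 40.9% ± 0.708 (SD, n = 3 each). The sum of the HP1 genes was 94.2 ± 2.15 scaled FPKM in control and 101 ± 4.06 in Al, but 112 ± 4.20 and 85.7 ± 4.53 on the FPKM as deposited, so its direction turned with the scaling, and it was lower in Al on TPM and after quantile normalization too.

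**Figure D3:**
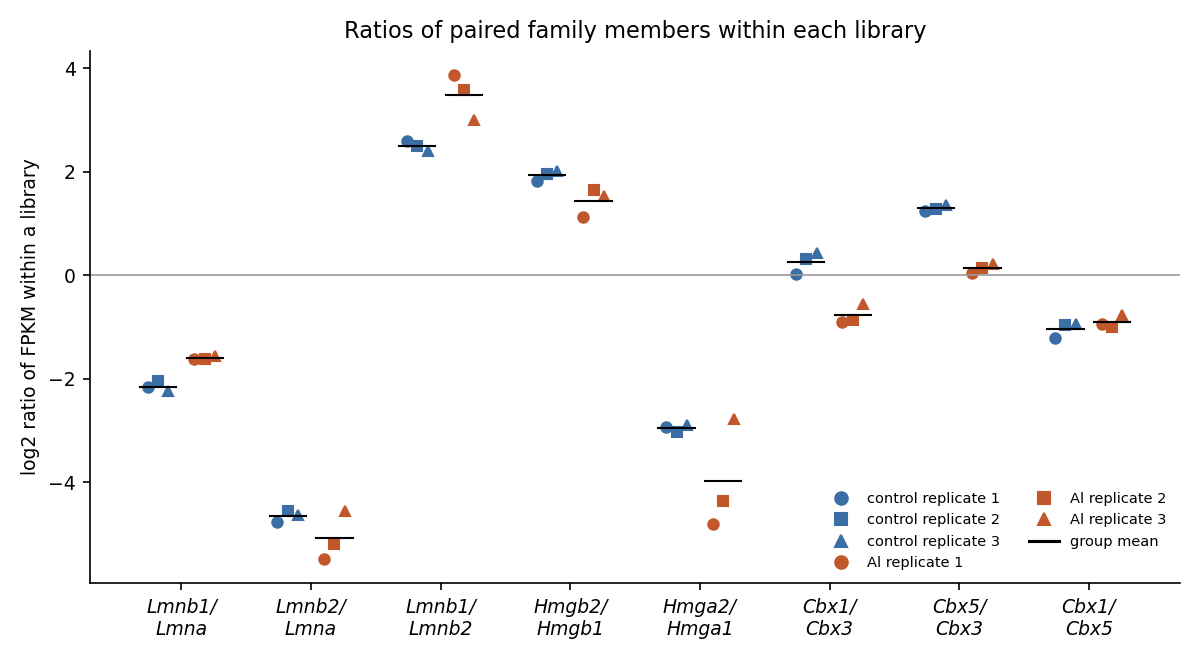
Log2 ratio of FPKM of paired genes within each library, with symbols for replicates, colours for groups and bars for group means. The Al libraries lie above control for Lmnb1/Lmna and Lmnb1/Lmnb2 and below it for Hmgb2/Hmgb1, Cbx1/Cbx3 and Cbx5/Cbx3, and Al replicate 3 stands apart from the other Al libraries for Hmga2/Hmga1.

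The HMGB and HMGA sums were higher in Al under all 4 scalings. The HMGB sum was 36.1 ± 3.65 scaled FPKM in control and 84.2 ± 4.23 in Al, and on TPM, where it was closest, it was 47.9 ± 5.45 and 64.9 ± 6.35 with groups that did not overlap. The HMGA sum was 62.8 ± 9.98 and 125 ± 35.5 scaled FPKM, and its groups overlapped on TPM and on the FPKM as deposited. The lamin sum turned with the scaling, from 329 ± 6.25 scaled FPKM in control and 512 ± 83.1 in Al to 436 ± 17.4 and 390.4 ± 10.8 on TPM and 423 ± 23.9 and 408 ± 6.89 after quantile normalization (SD, n = 3 each). In control, Lmna was followed by Lmnb1 and Cbx5, whose ranges did not overlap each other, with the range of Hmga1 overlapping both, and then by Hmgb2, Cbx1, Cbx3 and Lmnb2, with Hmgb1 and Hmga2 lowest and overlapping. In Al, Hmgb1 came level with Cbx1, Cbx3 came level with Cbx5, and Hmga2 and Lmnb2 were lowest and overlapped.

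Genes that work with the lamins were called in both directions. Of 16 genes of the nuclear envelope that bind lamins or chromatin, 3 rose, 7 fell and 6 were not called, with a median log2 fold change of 0.01, where 26.2% of all tested genes rose and 24.4% fell. Nrm, a multispanning protein of the inner nuclear membrane, fell by 1.99 on the log2 scale (19.6 ± 0.667 to 5.07 ± 1.81 scaled FPKM, limma adjusted P = 0.000138). Lemd2, a LEM-domain protein that binds lamin A, fell by 1.57 (limma adjusted P = 0.000247), and Syne1, which encodes nesprin-1 of the link to the cytoskeleton, fell by 1.12 (limma adjusted P = 0.00023). On the FPKM as deposited, TPM and quantile normalization 7, 12 and 7 of the 16 fell and none rose, where 42.0%, 53.1% and 24.1% of all tested genes fell. Of 5 genes that farnesylate and trim prelamin, Fnta, the shared subunit of farnesyl and geranylgeranyl transferase, fell by 0.75 (limma adjusted P = 0.000155). The other log2 fold changes were -0.31 for Fntb, -0.49 for Rce1, 0.30 for Icmt and 0.41 for Zmpste24, the protease that matures lamin A, and none of these was called. On the FPKM as deposited, TPM and quantile normalization 3, 3 and 2 of the 5 fell.

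None of the other HMG genes was called higher. Of 11 listed, 10 were tested and 3 fell, where 26.2% of all tested genes rose and 24.4% fell. Of the 3, Hmg20b fell by 1.01 and Hmgn3 by 0.71 on the log2 scale (limma adjusted P = 0.000196 and 0.00567). The median of the 10 was -0.31, and on the FPKM as deposited, TPM and quantile normalization 7, 8 and 5 fell and none rose, again beside 42.0%, 53.1% and 24.1% of all tested genes. Among 4 receptors through which extracellular HMGB1 can act, Tlr2 fell by 1.11 (limma adjusted P = 0.0244) from a level below 1 FPKM, and Ager (0.86), Tlr4 (-0.33) and Havcr2 (0.26) were not called. The Lin28 proteins block let-7, a microRNA that targets Hmga2, and Lin28a and Lin28b were below 0.1 FPKM on average and not tested. Of the Igf2bp genes, which encode RNA-binding proteins that let-7 also targets, Igf2bp1 rose by 0.69 and Igf2bp2 and Igf2bp3 fell by 1.07 and 0.74 (limma adjusted P = 0.000196, 0.000198 and 0.000786). Under the other scalings Igf2bp1 was not called, and after quantile normalization 1 of the 3 Igf2bp genes was called lower.

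Of 19 genes that write or read heterochromatin marks or load its histones, 18 were tested, 4 rose, 1 fell and the median was 0.09. The share that rose was near the 26.2% of all tested genes, and nothing is read from it. Suv39h2, a methyltransferase that makes the mark HP1 binds, rose by 0.93 from 0.938 ± 0.187 to 1.87 ± 0.162 scaled FPKM (limma adjusted P = 0.00384). Adnp, a zinc finger protein of a complex with HP1, rose by 0.93 as well (limma adjusted P = 4.75e-05). Suv420h2, the current Kmt5c, which HP1 recruits to methylate histone H4, fell by 1.37 (limma adjusted P = 0.000375). Daxx and Ehmt2, named after their values were seen, were the others that rose, by 0.85 and 0.63. On the FPKM as deposited and on TPM none of the 18 rose, and 5 and 12 fell, where 42.0% and 53.1% of all tested genes fell. After quantile normalization 4 rose and 3 fell, beside 22.0% and 24.1% of all tested genes. Of the chaperones linked to heterochromatin foci, Asf1a and Ubn1 rose by 0.91 and 0.60 (limma adjusted P = 0.00294 and 0.00117), and Hira (0.29), Cabin1 (-0.56) and Asf1b (-0.52) were not called. The Polycomb CBX genes carry a related chromodomain that reads another histone mark. Of these, Cbx2 rose by 0.91 (limma adjusted P = 8.49e-05) and Cbx7 fell by 0.71 (limma adjusted P = 0.0156), and Cbx6 (-0.51) and Cbx8 (0.29) were not called. Of the 5 chaperones, none rose and 2 fell on the FPKM as deposited and on TPM, and 1 rose and 2 fell after quantile normalization. None of the Polycomb CBX genes named here rose on the FPKM as deposited or on TPM.

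Lmnb1 and Hmgb2 are transcribed most in dividing cells, and the cell cycle genes are given beside them. Of 14 proliferation genes, 7 rose, 1 fell and the median was 0.63, where 26.2% of all tested genes rose and 24.4% fell. Mcm3 and Mcm4, subunits of the replicative helicase, rose by 1.37 and 0.90, and Ccnd1, which encodes cyclin D1, rose by 1.04 (limma adjusted P = 3.14e-05, 9.86e-05 and 0.000824). Mcm7, another subunit and the gene that fell, was named after its value was seen and fell by 0.66. On the FPKM as deposited 1 rose and 4 fell (14.0% and 42.0% of all tested genes), on TPM 1 and 6 (9.31% and 53.1%), and after quantile normalization 2 and 2 (22.0% and 24.1%). Of 11 genes of cell cycle arrest, 8 were tested. Cdkn1a, which encodes p21, rose by 1.61 (103 ± 22.9 to 313 ± 71.2 scaled FPKM, limma adjusted P = 0.000238), and the retinoblastoma family genes Rbl2 and Rb1 fell by 1.73 and 1.46 (limma adjusted P = 0.000633 and 0.000155). Rbl1 fell and Cdkn2c rose as well, both named after their values were seen, by 1.36 and 0.68. Of the 8, 2 rose and 3 fell on the scaled values, 1 and 4 on the FPKM as deposited, 1 and 5 on TPM, and 1 and 3 after quantile normalization, beside the same shares of all tested genes. Cdkn2a, which encodes p16, Cdkn2b and Cdkn1c were at 0 in all 6 libraries, where a count of 0 allows up to 3 reads per library.

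**Figure D4:**
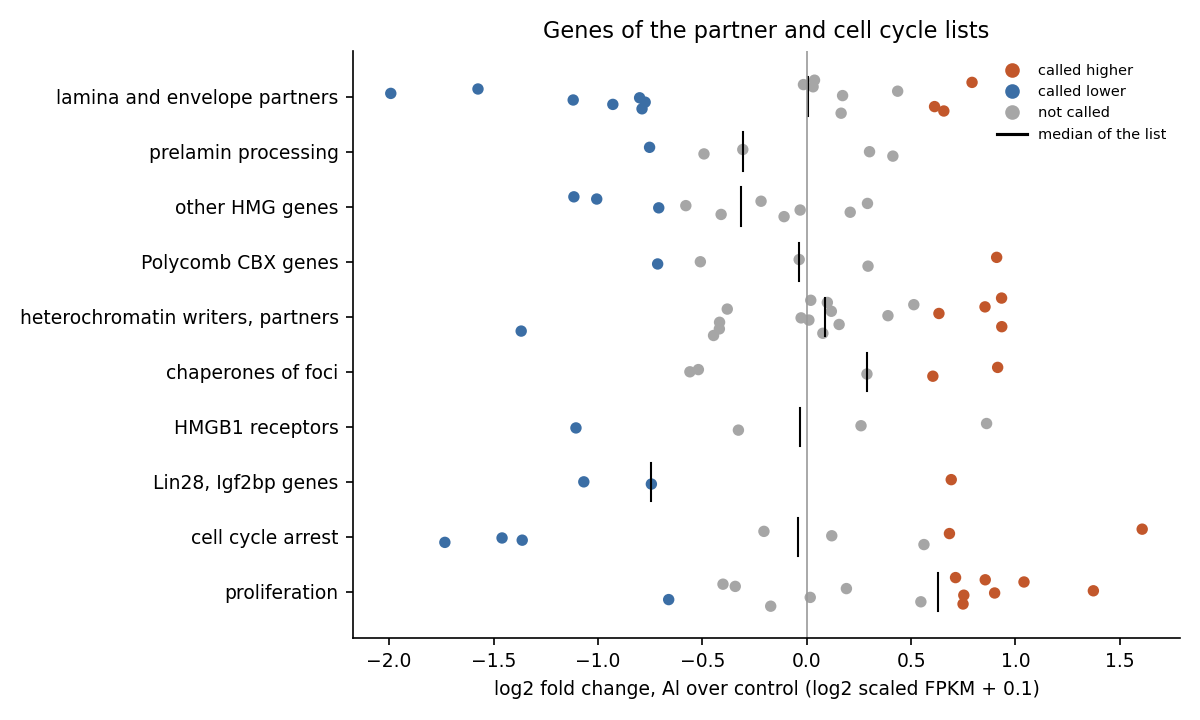
Log2 fold change (Al over control) of each tested gene of the partner and cell cycle lists, coloured by call, with a black bar at the median of each list. The lamina and envelope list runs from -1.99 to 0.79, the proliferation list has its median at 0.63, and no gene of the other HMG list is called higher.

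The genes whose pattern over the 6 libraries was most like that of Lmnb1, by Euclidean distance of centred log2 values among 10349 genes with a mean of at least 1 FPKM, were Zfp503, Exoc8 and Fem1c, at distances of 0.084, 0.102 and 0.114. For Hmgb2 they were Fbxw9, Rpp38 and Nsl1, at 0.113, 0.139 and 0.153. These 6 genes had log2 fold changes from 1.04 to 1.17.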

How the data were processed

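RNA-seq input libraries of HT22 cells (3 control, 3 Al) were analysed. The deposited values are FPKM, which the authors computed per gene symbol and library from stranded libraries. The study's methods name Trimmomatic, SortMeRNA and HISAT2 on GRCm38, while the submitters' processing notes name fastp, HISAT2 and HTSeq on GRCm39, and this conflict was not resolved. The study called genes from counts with a count model. The deposited file holds FPKM, and that model was not run here. Library totals and whole reads were recovered for 17681 of the 17688 genes above 0. For the tests, FPKM was divided by size factors (medians of ratios), 0.1 was added and log2 taken, and limma 3.58.1 under R 4.3.3 (lmFit, eBayes with trend) was fitted to the 12889 genes whose mean reached 0.1 FPKM. Folds of low genes are understated on this scale. Calls needed P under 0.05 before adjustment and a log2 fold change beyond 0.58 in either direction, as in the study's methods, and P was adjusted by Benjamini-Hochberg across the whole table of tested genes. The script was tested on simulated data. The labels give replicates without saying whether the cultures were separate, although the design text calls them biological, and P values measure the spread between these samples. The 10 genes, the lists and the tests were chosen with earlier results of these data known. Named genes are the 10 members, the 3 called genes with the largest change in each other list, any gene of a list of 5 or fewer, and the 3 nearest genes of Lmnb1 and Hmgb2. Alternatives covered scaling, pseudocount, filter, trend, replicate block, threshold and each library left out. After the data were seen, voom on the recovered reads, the comparison by shared sequence 2 further ratios, and ratios and family sums under other scalings were added. Some genes of the lists are not reported here. Shared stretches of 50 bases came from GENCODE transcripts on GRCm38, found for 95.0% of tested genes, and windows and positions came from RefSeq GRCm38.p6. Python 3.11.15, numpy 2.4.6 and pandas 2.3.3 were used.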

Additional observations from a re-analysis of the deposited data

How the results depend on the processing

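The scaling between libraries moved the counts most. Members called higher were 5 with size factors, 3 on the FPKM as deposited, 1 on TPM and 3 after quantile normalization, and members called lower were 0, 2, 4 and 1. All genes called higher were 1805 and 1200, and lower 5417 and 6843, on the FPKM as deposited and on TPM. The direction of Lmna reversed on TPM (-0.27) and after quantile normalization (-0.22). That of Lmnb2 reversed on the FPKM as deposited (-0.39), on TPM (-0.69) and without Al replicate 3 (-0.0019, with values up to 0.22 over the libraries left out). That of Hmga2, which was at 0.0046, reversed on the FPKM as deposited (-0.48), on TPM (-0.77), with voom (-0.0085) and when control replicate 1, control replicate 2 or Al replicate 3 was left out, with values from -0.30 to 0.33 over the libraries left out. The cause was not tested. Leaving out each library in turn gave 5 to 6 members called higher. The replicate numbers showed no pairing of the libraries. The deviations of same-numbered libraries from the mean of their own group correlated at -0.033, -0.026 and -0.073 across genes. A replicate block gave 3352 genes higher and 3123 lower and the same member counts of 5 and 0. Pseudocount, filter, trend and voom left those member counts at 5 and 0. The Lmnb2 to Lmna ratio reversed after quantile normalization (0.35), an alternative chosen after seeing the data. Depth limits the genes near 0.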

Other observations

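Cbx3 and Cbx5 each lie head to head with an hnRNP gene, which encode RNA-binding proteins of mRNA processing, and the pairs were looked at after the values had been seen. In RefSeq on GRCm38.p6, 105 bases separate Cbx3 from Hnrnpa2b1 and 38 bases separate Cbx5 from Hnrnpa1. Hnrnpa2b1 was not called, at a log2 fold change of -0.13 (limma adjusted P = 0.341), while Cbx3 rose. The Cbx3 to Hnrnpa2b1 ratio was 0.133, 0.114 and 0.109 in control and 0.270, 0.251 and 0.205 in Al, higher in all 3 Al libraries. Hnrnpa1 rose by 1.20 (limma adjusted P = 0.000581), while Cbx5 lay at -0.26. The Cbx5 to Hnrnpa1 ratio was 0.182, 0.166 and 0.151 in control and 0.0549, 0.0551 and 0.0717 in Al, lower in all 3 Al libraries by -1.46 on the log2 scale. Both differences of the ratio reached the smallest exact permutation P that 3 against 3 libraries allow, 0.1.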
